A study of Rattus norvegicus with 8 samples.

Results

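Kruppel-like factors are transcription factors that bind GC-rich and CACCC-type DNA through C2H2 zinc fingers at their C-terminus. The 9 genes described here are Klf2, Klf3, Klf4, Klf5, Klf6, Klf9, Klf10, Klf13 and Klf15. Each was taken as the locus whose RefSeq accessions map to that symbol alone and, where a symbol had several loci, as the one with the highest mean level. All 9 had such a locus among 14767 genes matched to exactly 1 symbol. Of these, 8 were expressed, meaning a level of at least 1 FPKM (fragments per kilobase of transcript, scaled to library size) in at least 1 library. Klf5 was under that minimum in both libraries.

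The cells were cultured primary vascular smooth muscle cells (VSMCs) isolated from thoracic aortas of rats of the Sprague-Dawley strain. Control cells carry the treatment label none, and treated cells received 0.1 uM angiotensin II (AngII), a vasoconstrictor peptide, for 3 h. Overnight serum withdrawal is stated for the AngII samples only, and whether control cells were starved is not stated, so starvation and AngII cannot be told apart from the labels. RNA-seq and ChIP-seq for H3K4me3, a promoter mark, and for H3K36me3, which marks the bodies of transcribed genes, were each made in 1 library per condition. There is therefore no replicate error and no test of the treatment. A range in parentheses after an FPKM gives the bounds deposited by the authors, which carry model error only.

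In smooth muscle, KLF4 and KLF5 are known from rodent injury models for their part in the switch from a contractile to a proliferative state, while KLF15 is known as a brake on growth and fibrosis in heart and vessels. KLF2 is best known from endothelium, where blood flow induces it. KLF9, KLF10, KLF11 and KLF13 belong to a subgroup that recruits the SIN3A corepressor, and KLF3 recruits CtBP corepressors.

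The libraries had the levels of smooth muscle markers and lacked those of endothelium. The 7 smooth muscle markers with a locus summed to 5504 FPKM in control and 5732 FPKM after AngII, and all 7 were expressed. None of 6 endothelial markers with a locus was expressed, with sums of 0.785 and 0.489 FPKM, and Tie1 and Cldn5 were listed at 0. Of 9 leukocyte markers 3 were expressed, while Ptprc, Itgam and Cd3e were listed at 0. The 9 summed to 170 FPKM in control and 142 FPKM after AngII, of which the highest marker held 159 and 130 FPKM. The 5 adventitial fibroblast markers with a locus, all of them expressed, summed to 171 FPKM in control and 134 FPKM after AngII. The 6 Schwann cell and neuron markers summed to 2.78 and 3.95 FPKM, with Snap25 among those listed at 0. The part of the fibroblast and leukocyte markers in the values below was not tested.

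The members differed in direction after AngII. With a pseudocount of 1 added to each FPKM, Klf6 was higher and Klf15 lower by at least 2-fold. On that scale Klf10 and Klf13 stood just under 2-fold higher, and Klf9 and Klf4 were higher by less. Without the pseudocount the ratio of Klf10 was 2.48. Klf2 and Klf3 were nearly level. The log2 ratios that follow are log2 of (AngII FPKM + 1) over (control FPKM + 1), each with a model SD from the bounds. Of the 8 expressed members 1 was at least 2-fold higher, beside 3.89% of the 8354 expressed genes of the series, and 1 was at least 2-fold lower, beside 2.96%. With bounds apart as well, the members counted 0 higher and 1 lower, beside 2.71% and 1.58%. By bounds apart alone they also counted 0 and 1, beside 3.02% and 2.19%. The members' median log2 ratio was 0.51, and 6 of 8 lay above 0. The median over all expressed genes was -0.22, with quartiles at -0.46 and 0.08, and 30.05% of them lay above 0. Scaling the AngII values by 1.21, so that the median expressed locus lies at 0, moves well expressed genes up by about 0.28 and weak ones by less. Over all expressed genes, higher ones made up 56.8% of 2-fold calls as deposited, 83.2% when centred in this way and 40.3% with a pseudocount of 0.1. In bulk RNA, fewer cells of a type and less RNA per cell cannot be told apart.

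**Figure D1:**
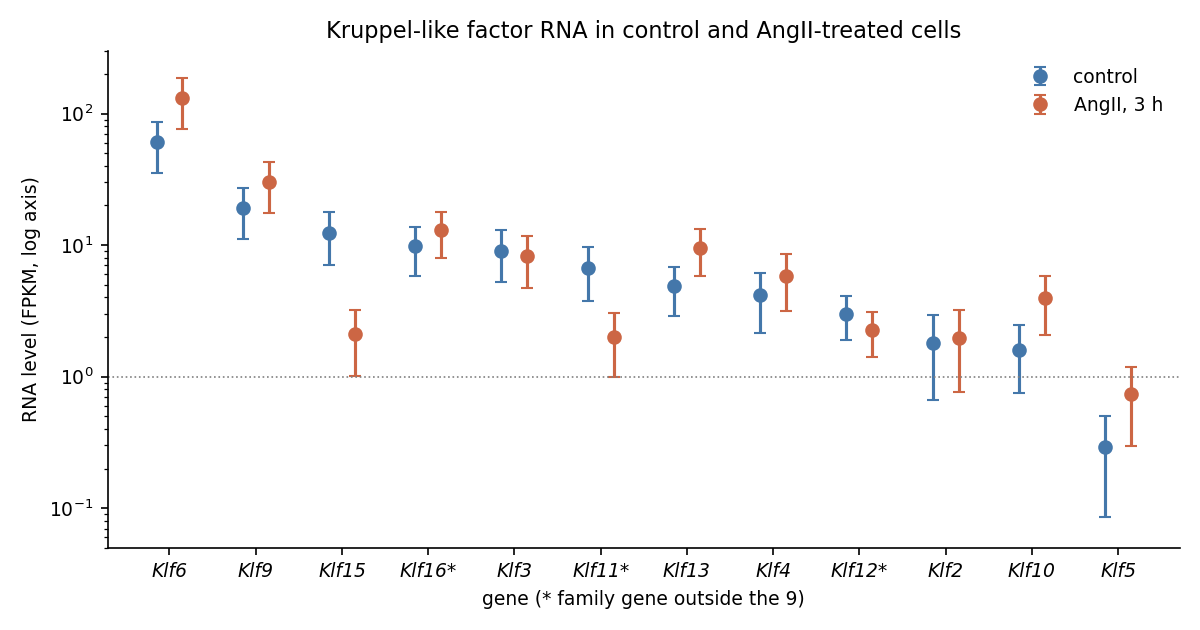
RNA level of the 9 genes and of Klf11, Klf12 and Klf16 (starred) in FPKM on a log axis, in order of the control level. Points are the single control and AngII libraries, bars the deposited bounds, and the dotted line the expression minimum of 1 FPKM. Bounds separate for Klf15 and Klf11, both lower after AngII.

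Klf6, known in rat as an early gene of activated liver stellate cells, was the most abundant member in both libraries. It was listed at 60.8 FPKM (35.6 to 86.0) in the control library and 132 FPKM (75.7 to 188) in the AngII library. The AngII library was the higher, but the bounds overlap. The log2 ratio was 1.10 with a model SD of 0.42, at percentile 96.7 of expressed genes. Klf6 made up 53.2% of the summed FPKM of the 9 members in control and 67.8% after AngII, as the sum went from 114 to 194 FPKM. Its locus lies on chromosome 17 (75578497 to 75585072, rn4). The promoter is shown because Klf6 was the one member counted as higher. It covers 250 bases before to 50 after the RefSeq start (GRCr8, chr17:69458429-69458728, minus strand). Capitals mark motif matches on either strand, namely CCAAT, the GC box GGGCGG and a CArG box, the site of serum response factor.

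Klf6: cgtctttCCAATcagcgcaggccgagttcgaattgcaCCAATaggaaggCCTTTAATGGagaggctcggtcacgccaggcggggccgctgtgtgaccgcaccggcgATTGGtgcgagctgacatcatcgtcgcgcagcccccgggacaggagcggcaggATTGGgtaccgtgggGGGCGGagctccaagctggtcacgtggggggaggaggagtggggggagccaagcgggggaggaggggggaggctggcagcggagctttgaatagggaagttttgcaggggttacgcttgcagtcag

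The CArG box covers bases 50 to 59 and did not overlap another match. Such a match was found in 1.64% of 33469 rat promoters of the same length. The 4 CCAAT matches and the GC box are of kinds found in 37.5% and 33.1% of promoters. A match describes the letters only.

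Klf15 had the largest difference of the 9 genes. It was listed at 12.4 FPKM (7.05 to 17.7) in the control library and 2.12 FPKM (1.01 to 3.23) in the AngII library. The AngII level was the lower one, and the bounds do not overlap. The log2 ratio was -2.10 with a model SD of 0.39, at percentile 0.06 of expressed genes, and with a pseudocount of 5 it was -1.29. Klf15 went from the third most abundant member to the seventh and from 10.9% of the members' sum to 1.09%. Its RNA is listed on chromosome 4 at an interval of 576 kb (124234969 to 124811460, rn4) that 8 loci share. Of the other 7, Vom1r102, Vom1r103, Vom1r104, C4h3orf22 and Chst13 were listed at 0 in both libraries. The 2 with unmatched accessions stood at 8.57 and 31.3 FPKM in the control library and at 7.99 and 18.3 FPKM in the AngII library, with overlapping bounds, so no neighbour at this interval was past 2-fold. The promoter is shown as that of the member counted as lower (GRCr8, chr4:124522765-124523064, plus strand), with capitals marking its only match, CCAAT.

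Klf15: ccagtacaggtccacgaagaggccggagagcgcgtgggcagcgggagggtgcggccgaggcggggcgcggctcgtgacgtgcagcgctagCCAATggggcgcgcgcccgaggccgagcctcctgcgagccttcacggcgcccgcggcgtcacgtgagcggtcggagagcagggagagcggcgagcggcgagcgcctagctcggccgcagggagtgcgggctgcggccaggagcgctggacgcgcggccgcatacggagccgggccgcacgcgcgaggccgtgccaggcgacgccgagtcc

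The Klf15 promoter is 77.3% G or C with 51 CpG dinucleotides, and that of Klf6 is 64.7% with 23. The median rat promoter had 51.7% and 7. No CArG box, GC box, CACCC box (CCACCC), AP-1 site (TGANTCA), cAMP response element (TGACGTCA), glucocorticoid receptor palindrome (ACANNNTGT), TATA box (TATAAA) or MEF2 site was found in these 300 bases of Klf15.

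Among the SIN3A-binding subgroup, Klf10, known as an early gene induced by TGF-beta, was listed at 1.60 FPKM (0.748 to 2.46) in the control library and 3.98 FPKM (2.09 to 5.87) in the AngII library. The bounds overlap, the log2 ratio was 0.94 with a model SD of 0.36, and the ratio without the pseudocount was 2.48. Klf10 was thus held under the 2-fold rule by the pseudocount, and with a pseudocount of 0.1 its log2 ratio was 1.26. Klf13 stood at 4.86 FPKM (2.89 to 6.83) and 9.52 FPKM (5.81 to 13.2), a log2 ratio of 0.84 with a model SD of 0.35. That locus carries 3 accessions, of which 1 names rat Klf13 and the others had no match. Klf9, a glucocorticoid and thyroid hormone responsive gene, was listed at 19.2 FPKM (11.1 to 27.3) in the control library and 30.2 FPKM (17.7 to 42.7) in the AngII library. Its log2 ratio was 0.62 with a model SD of 0.41. A second Klf9 locus, 1.90 kb beyond the first, was listed at 0.414 and 0.684 FPKM. The AngII level was the higher in Klf9, Klf10 and Klf13, and the bounds overlap in each.

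Klf11 of the same subgroup, not among the 9 genes, differed in the other direction. It was listed at 6.74 FPKM (3.76 to 9.72) in the control library and 2.01 FPKM (0.989 to 3.02) in the AngII library, a log2 ratio of -1.37 with bounds apart. With a pseudocount of 5 that ratio was -0.75, short of 2-fold. The median of the other KLF and SP genes was 0.14 (0.41 when centred) over 5 expressed of 12 with a locus. It was -0.29 over loci with coordinates of their own, a setting chosen after seeing the data that leaves out Klf16 and Sp1. Klf11 was the 1 of the 5 past 2-fold. Klf12 (-0.29), Klf16 (0.37), Sp1 (0.14) and Sp4 (0.39) had overlapping bounds, and the loci of Klf16 and Sp1 share their interval with others. Klf1 (0.555 and 0.212 FPKM), Sp6 (0.503 and 0.0979 FPKM) and Sp5 (0 and 0.0188 FPKM) were under the expression minimum, and Klf14, Sp7, Sp8 and Sp9 were listed at 0.

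Of the members tied to the smooth muscle phenotype, Klf4 was listed at 4.15 FPKM (2.16 to 6.14) in the control library and 5.81 FPKM (3.13 to 8.49) in the AngII library. The log2 ratio was 0.40 with a model SD of 0.40, so the difference was about 1 model SD. Klf5 was listed at 0.292 FPKM (0.0859 to 0.499) in the control library and 0.741 FPKM (0.299 to 1.18) in the AngII library. The ratio without a pseudocount was 2.54, but the bounds overlap and both levels are under the expression minimum. Klf2 stood at 1.79 FPKM (0.670 to 2.92) and 1.98 FPKM (0.764 to 3.20), a log2 ratio of 0.09. Klf3 stood at 9.09 FPKM (5.23 to 12.9) and 8.27 FPKM (4.75 to 11.8), a log2 ratio of -0.12 that becomes 0.13 when centred. Neither Klf2 nor Klf3 differed by more than 1 model SD.

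In rn4, Klf10, Klf9, Klf4, Klf2 and Klf3 have coordinates of their own, on chromosome 7 (Klf10, 73821189 to 73826866), chromosome 1 (Klf9, 226420948 to 226446376), chromosome 5 (Klf4, 73446927 to 73451286), chromosome 16 (Klf2, 17941779 to 17943730) and chromosome 14 (Klf3, 46203637 to 46226077). In order of level, Klf6 stood apart from Klf9 in both libraries by bounds that do not overlap. In control, Klf9, Klf15, Klf3, Klf13, Klf4, Klf2 and Klf10 followed, and no 2 neighbours in that order had bounds apart until Klf10 and Klf5. After AngII the order was Klf6, Klf9, Klf13, Klf3, Klf4, Klf10, Klf15, Klf2 and Klf5, and bounds were apart between Klf6 and Klf9 and between Klf9 and Klf13 only. Over the 2 libraries, the gene nearest to Klf6 in log2(FPKM + 1) was Vmp1 (58.2 and 134 FPKM, distance 0.07). The gene nearest to Klf15 was P2ry6 (12.0 and 2.20 FPKM, distance 0.06).

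**Figure D2:**
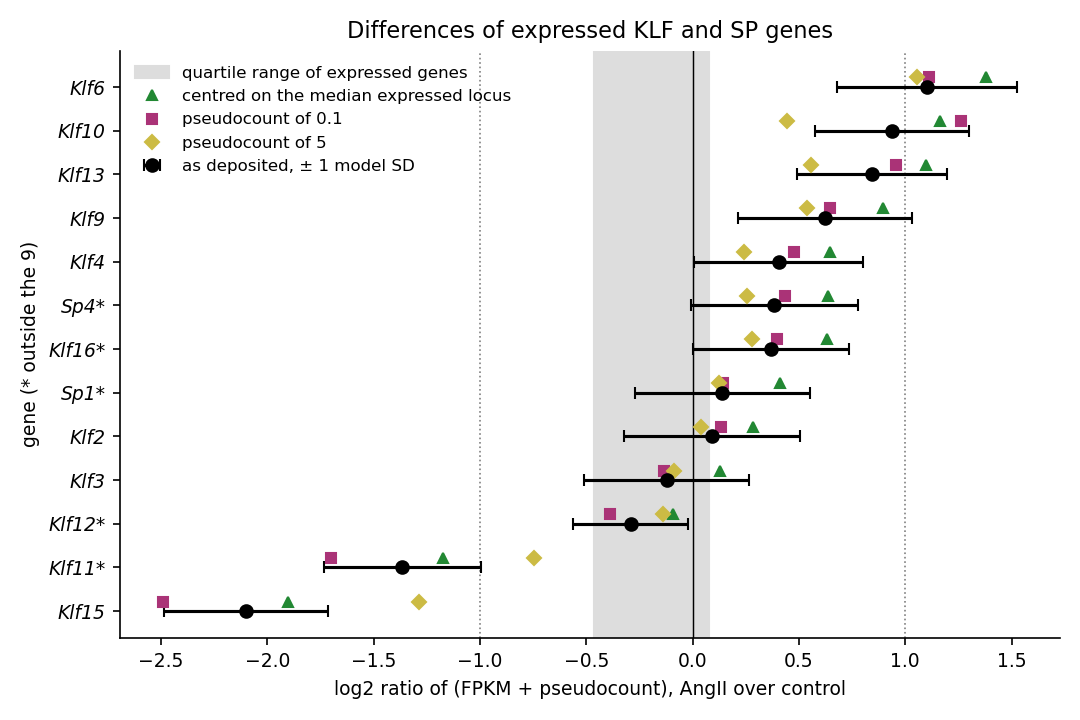
Log2 ratio of AngII over control for the expressed KLF and SP genes (starred ones are outside the 9). Black points are values as deposited with 1 model SD, coloured marks other settings, the grey band the range between the quartiles of expressed genes (-0.46 to 0.08) and dotted lines a 2-fold ratio. Klf15 stays below -1 and Klf6 above 1 in every setting drawn, while Klf3 changes sign when centred.

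H3K4me3 lay at all 9 members in both conditions, for Klf15 somewhere in or within 1 kb of its shared interval. Among 6452 expressed genes with coordinates of their own, 95.2% had the mark in control and 95.2% after AngII, so this is the common state. The 8 members other than Klf15 have such coordinates. Over the locus and 1 kb either side, the regions covered 7.10 kb at Klf6 in control and 8.58 kb after AngII, a ratio of 1.21. At Klf10 they covered 3.90 and 3.85 kb, at Klf4 5.88 and 6.22 kb, and at Klf13 10.8 and 9.34 kb. The 8 ratios ran from 0.86 at Klf13 to 1.21 at Klf6. After AngII the regions filled this whole window at Klf6 and at Klf2, so neither ratio could have been larger. At Klf3 the window cut off part of the region in both conditions. The quartiles over 6116 genes with the mark in both conditions were 0.92 and 1.19.

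The regions at several members were wide. A region of 16.2 kb at Klf3 was wider than 98.9% of control regions and reached past the listed locus in both conditions. Klf9 had a region of 9.79 kb in control and 10.7 kb after AngII, and Klf4 regions of 7.34 and 8.00 kb. At Klf6 the control list held a region of 7.50 kb over most of the locus and another of 2.75 kb lying 1.36 kb outside it, while the AngII list held 1 region of 12.6 kb (75574551 to 75587190). The deposited score of the larger Klf6 region ranked above 98.5% of control regions, and that of the AngII region above 88.8% of its own list. The main Klf13 region (5.20 kb in control and 7.68 kb after AngII) ranked above 99.3% and 90.2%. The lists differ in length, and their regions are built of bins of 153 bp in control and 160 bp after AngII. The median region is 1836 bp wide in control and 1920 bp after AngII. A change therefore cannot be judged from these ranks or from small differences in width.

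**Figure D3:**
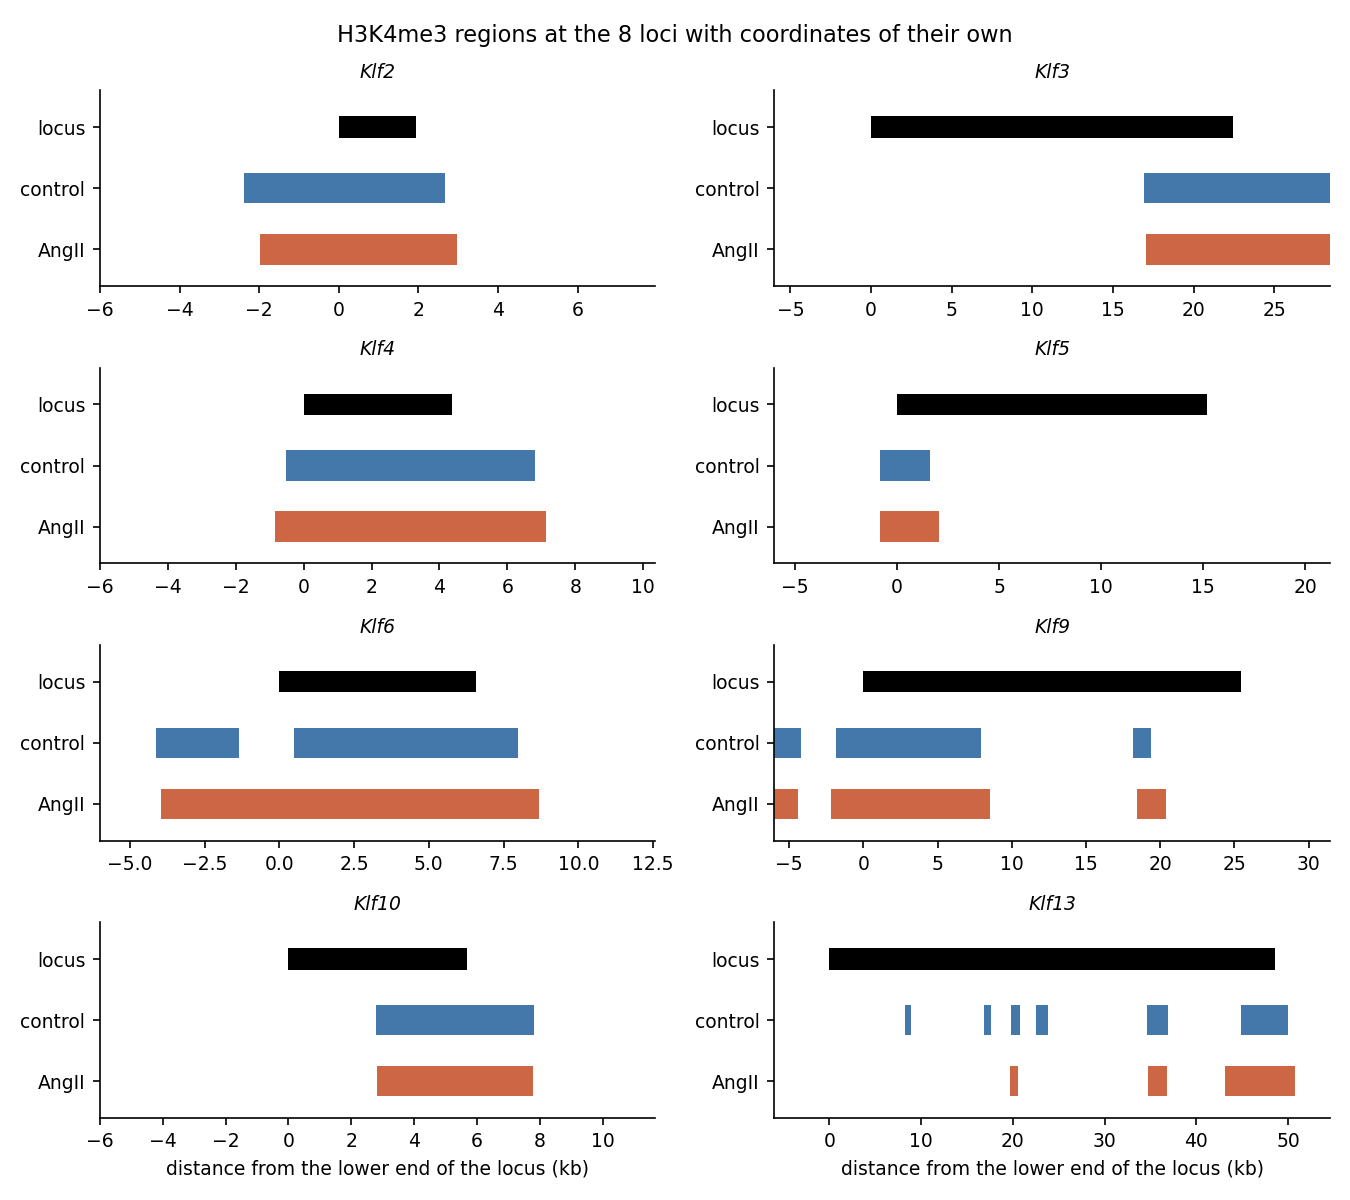
H3K4me3 regions at the 8 members with coordinates of their own, as distance in kb from the lower-coordinate end of each locus (black), in the control and AngII lists. Regions are drawn to 6 kb beyond the locus, which cuts the Klf3 region short. The 2 control regions at Klf6 are listed as 1 after AngII, and Klf13 has 6 regions in control and 3 after AngII.

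Klf5 carried H3K4me3 although its RNA was low. A region of 2.45 kb in control and 2.88 kb after AngII covered the lower end of its locus (chromosome 15, 83103176 to 83118363, rn4), with a score above 94.1% of the control list and 88.6% of the AngII list. Of 4918 genes under the FPKM minimum with coordinates of their own, 39.5% had H3K4me3 in control and 39.1% after AngII. The promoter of Klf5 is shown because the locus carried the mark with little RNA (GRCr8, chr15:82471831-82472130, plus strand). The strand of the locus in rn4 is not given, and whether the marked end is this start was not tested. Capitals mark its 3 CCAAT matches.

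Klf5: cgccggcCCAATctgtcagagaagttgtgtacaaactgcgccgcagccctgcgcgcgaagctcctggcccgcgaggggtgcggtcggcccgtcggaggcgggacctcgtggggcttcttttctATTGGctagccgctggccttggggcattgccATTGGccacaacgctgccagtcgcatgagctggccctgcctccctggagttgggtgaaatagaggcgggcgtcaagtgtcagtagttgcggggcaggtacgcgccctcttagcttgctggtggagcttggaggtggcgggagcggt

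The Klf5 promoter is 65.3% G or C with 25 CpG dinucleotides. RefSeq promoters were matched for 6 of the 9 members, the others being Klf2, Klf10 and Klf13. Of the 6, the CArG box was found in Klf6 alone, the AP-1 site in Klf9 alone and the TATA box in Klf4 alone, with 2 matches. These kinds occur in 1.64%, 7.33% and 14.2% of rat promoters. Both TATA box matches of Klf4 were of the reverse complement, TTTATA, at offsets of -146 and -78 from the start. The CACCC box was found in Klf3 alone, with 3 matches, the last overlapping a CCAAT match, and occurs in 29.4%. The glucocorticoid receptor palindrome was likewise found in Klf3 alone, with 1 match, and occurs in 6.86%.

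H3K36me3 touched 8 members in control and 9 after AngII, with Klf5 the exception in control and Klf15 counted by its shared interval. The mark was found at 94.6% and 96.9% of expressed genes with coordinates of their own. Klf3, Klf4, Klf6, Klf9 and Klf10 had about 98.2% or more of the locus covered in both libraries, so the measure leaves no room for a gain at Klf6 and Klf10. Klf13, on chromosome 1 (118363169 to 118411724, rn4), had 54.5% of its length covered in control against 99.2% in the AngII list, which is 44.7 points more. A gain of over 20 points was found in 8.2% of expressed genes with coordinates of their own and a loss of that size in 2.29%. The lower quartile of control cover over these genes was 91.3%, so most of them had no room for such a gain. Klf5 went from 0% to 32.5% of its locus, and 7.3% of genes under the FPKM minimum gained over 20 points. Any H3K36me3 was found at 20.4% of such genes in control and 25.6% after AngII. The score of the Klf5 region stood at percentile 31.2 of the AngII list. Larger gains were listed at family genes outside the 9 that were also under the minimum. Sp5 went from 0% to 94.0%, and Sp6 and Sp9 from 0% to 100%. Sp7 and Sp8 had 0% in both libraries and Klf14 100% in both. Klf2 went from 97.3% to 73.8%, but its locus spans 1.95 kb and the difference of 459 bp is less than 1 bin of either list (589 and 548 bp). The region at Klf2 was 4.71 kb wide in control and 100.3 kb after AngII, reaching beyond the lower end of the locus. The interval of Klf15 and its neighbours was covered to 14.1% and 16.7%, which cannot be assigned to Klf15.

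**Figure D4:**
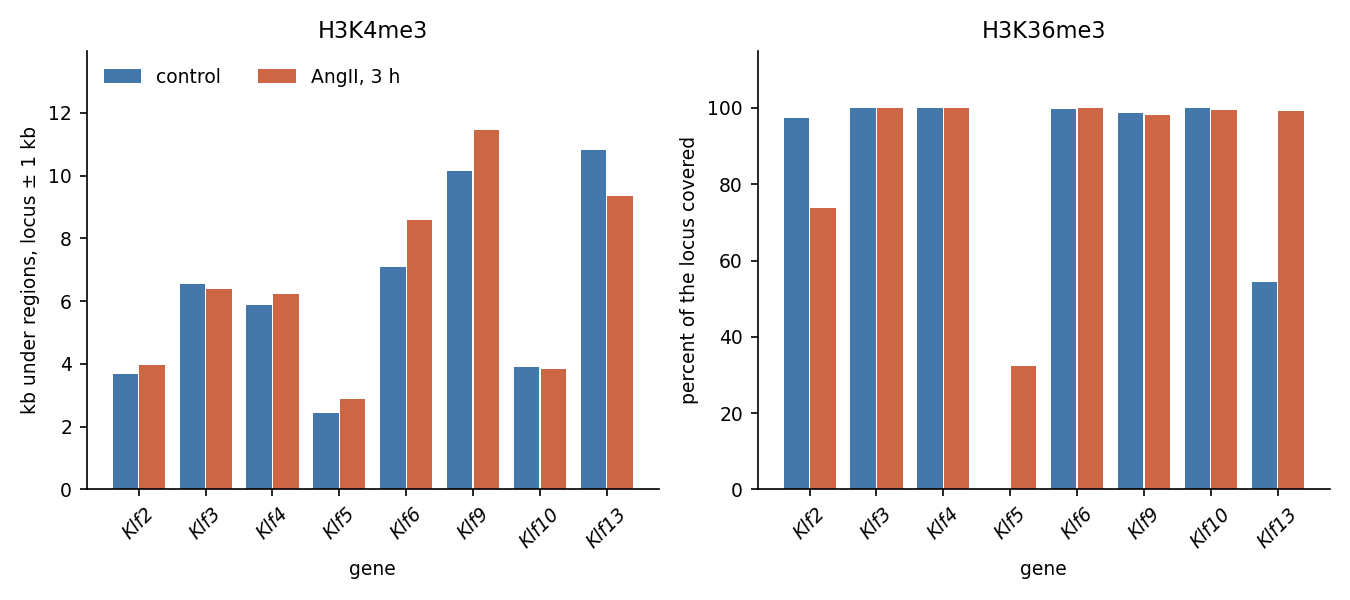
Left, kb under H3K4me3 regions over each locus and 1 kb either side. Right, percent of the locus under H3K36me3 regions. Bars are single control and AngII libraries for the 8 members with coordinates of their own. H3K36me3 cover differs by over 20 points at Klf13 and Klf5, higher after AngII, and at Klf2, lower.

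No gene of the list that feeds into KLF expression was past 2-fold with the pseudocount of 1 and no scaling. When centred 3 were, beside 5.88% of expressed genes higher. The upstream genes were kinases and transcription factors of the MAP kinase, MEF2, SRF and glucocorticoid receptor pathways. Of 14 expressed, 0 were past 2-fold, beside 3.89% higher and 2.96% lower over all expressed genes. The median log2 ratio was 0.34 with 9 above 0. Furthest from 0 were Myocd, the coactivator of SRF (0.97), the glucocorticoid receptor Nr3c1 (-0.91), Srf itself (0.89) and the class II deacetylase Hdac5 (0.83). Myocd was listed at 8.81 FPKM in the control library and 18.3 FPKM in the AngII library, and was held under 2-fold by the pseudocount. With a pseudocount of 0.1, 1 upstream gene was past 2-fold. Nr3c1 was listed at 68.0 FPKM in the control library and 35.8 FPKM in the AngII library, and the bounds of all 4 overlap. Srf shares its interval with 30 other loci.

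Cofactors of the family had a median log2 ratio of -0.01 (0.26 when centred), with 1 of 12 expressed genes higher than 2-fold and 0 lower, beside 3.89% and 2.96% of all expressed genes. The 1 was Fhl3, a LIM-domain protein known to bind KLF3, listed at 7.84 FPKM (3.92 to 11.7) in the control library and 25.4 FPKM (14.3 to 36.6) in the AngII library, with bounds apart. The ubiquitin ligases Smurf1 (0.52) and Wwp1 (-0.23), of which the latter acts on KLF2 and KLF5, had overlapping bounds. The corepressors Ctbp1 (-0.09), Ctbp2 (0.03), Hdac1 (-0.03) and Hdac2 (-0.03) were within 0.1 of 0 as deposited.

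Of 19 expressed genes reported as KLF targets, 5 were past 2-fold upward (4 with separate bounds) and 0 downward, and the list median was -0.13 (0.14 when centred). Over all expressed genes 3.89% were past 2-fold upward, 2.71% with separate bounds, and 2.96% downward. Among them were the platelet-derived growth factor chains Pdgfb (3.37) and Pdgfa (1.39). Pdgfa was listed at 39.4 FPKM in the control library and 105 FPKM in the AngII library. Tgfb1 (1.08), named after its value was seen, had overlapping bounds. Of 12 expressed glucocorticoid-responsive genes, 3 were past 2-fold upward, all with separate bounds, and 0 downward, beside the same shares, and the list median was 0.05 (0.31 when centred). They were the kinase Sgk1 (3.50), the EGF receptor inhibitor Errfi1 (2.45) and the chaperone partner Fkbp5 (1.78), while Tsc22d3 was at -0.57 with overlapping bounds. Smooth muscle contractile genes had 0 of 15 past 2-fold, beside the same shares. When centred 3 were higher, beside 5.88%, and with a pseudocount of 0.1 it was 1, beside 4.69%. The list median was -0.14 (0.13 when centred), with Myocd (0.97), Vcl (0.97), Smtn (0.74) and Cnn1 (0.46) furthest from 0.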

How the data were processed

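RNA and histone marks were measured in 1 library per condition and assay, and samples were grouped by their titles. The 2 input samples were not analysed here. TopHat, Cufflinks and Cuffdiff gave the FPKM values and bounds that the authors deposited, per the submitters' processing notes, which name the assembly rn4 and no versions. The FPKM tables of both RNA samples are identical and hold both conditions in 30937 loci, of which 15 had no usable estimate. The ChIP-seq lists give regions with a score deposited by the authors. Bowtie is named in the same notes; no label or header names the region caller. Every region is made of whole bins of 153 bp (control H3K4me3), 160 bp (AngII H3K4me3), 589 bp (control H3K36me3) and 548 bp (AngII H3K36me3), so cover differs by up to a bin at each edge. The score was used only to rank regions within a list. No label or header gives the sequencing depth. The model SD at 10 FPKM or more had a median of 21.1% in control.

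Accessions were paired with symbols through a RefSeq table of GRCr8, used for names and promoter sequences only, and the locus coordinates are those of the files. The pseudocount was 1 and the expression minimum 1 FPKM. Bounds were taken as 2 SD either side. Genes were counted by a 2-fold ratio, since 1 library per condition allows no test. H3K4me3 was counted within 1 kb of a locus and H3K36me3 on it. Python 3.11.15, numpy 2.4.6 and pandas 2.3.3 were used, and the counting was tested on simulated data. The simulation had planted differences larger than 2-fold and noise below the model SD. It checks the code and does not measure how reliable the counts here are. The text names the 9 members, the other KLF and SP genes with a locus, 4 genes per other list with the largest absolute log2 ratio, the nearest gene to each member past 2-fold and loci sharing a member's interval. Some genes that this rule or the marker lists would name are not reported here. Ctbp1, Ctbp2, Hdac1 and Hdac2 were named after their values were seen. The members and lists were chosen with earlier results of these data known. The target list was assembled from general knowledge.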

Additional observations from a re-analysis of the deposited data

How the results depend on the processing

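Klf6 stayed at least 2-fold higher under both other pseudocounts (0.1 and 5), both scalings and summed loci, with log2 ratios from 1.05 to 1.38. Klf15 stayed at least 2-fold lower, from -2.49 to -1.29. The count of members higher was 2 with a pseudocount of 0.1 and scaled to the upper quartile (Klf6 and Klf10), beside 4.69% and 4.31% of expressed genes. It was 3 when centred (with Klf13), beside 5.88%, 4 at 1.5-fold (with Klf9), beside 7.94%, and 0 by bounds that do not overlap, beside 3.02%. The count lower was 0 for loci with coordinates of their own, which leave out Klf15, beside 3.19%. That setting was chosen after seeing the data. The median of the members ran from 0.34 to 0.77. Among the lists, the other KLF and SP genes had 0 lower with a pseudocount of 5, beside 0.599%, as Klf11 was then at -0.75. Of 14 upstream genes, those higher numbered 1 with a pseudocount of 0.1, 3 when centred, 1 by the upper quartile and 4 at 1.5-fold. Contractile genes higher numbered 1, 3, 2 and 3 of 15 in the same order of settings. The shares of all expressed genes higher were 4.69%, 5.88%, 4.31% and 7.94% in that order. At 1.5-fold 2 of 14 upstream genes and 2 of 19 targets were lower, beside 16.4% of expressed genes. Cofactors had 2 of 12 higher at 1.5-fold, beside 7.94%. Genes higher made up 56.8% of calls over all expressed genes as deposited, 83.2% when centred, 79.8% with a pseudocount of 5, 40.3% with one of 0.1 and 32.7% at 1.5-fold. All counts of members with H3K4me3 stayed at 9, and those with H3K36me3 ran from 7 to 9, with Klf15 judged by its shared interval. No paired analysis was possible because each condition has 1 library, and leaving out a library would leave no comparison.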

Other observations

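Unnamed transcripts were listed beside 3 members. At Klf4, a locus 0.983 kb away (XLOC_022918) was listed at 0.852 FPKM (0.345 to 1.36) in the control library and 0.184 FPKM (0.0369 to 0.331) in the AngII library. Its bounds are apart and it was the lower after AngII while Klf4 was not, but control alone was near the expression minimum and the AngII level far under it. The H3K4me3 region of Klf4 reaches into it in both conditions. At Klf6, a locus 0.389 kb away (XLOC_012325) stood at 2.08 and 3.27 FPKM and another 3.47 kb away (XLOC_012324) at 2.12 and 1.48 FPKM, all with overlapping bounds. At Klf3, a locus 0.967 kb away (XLOC_009142), under the wide H3K4me3 region, was listed at 2.38 FPKM in the control library and 1.79 FPKM in the AngII library, also with overlapping bounds. Strand is not given for these loci, so reads of a member and of a transcript overlapping it cannot be told apart.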
